A study of Homo sapiens with 8 samples.

Results

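The mucin genes MUC1, MUC2, MUC4, MUC5AC, MUC5B, MUC6, MUC12, MUC17, and MUC20 were examined for replication origins in 4 lines of HCT116, a human colon cancer epithelial cell line. All 4 lines are p53−/−. They are the parental line (WT) and the ORC1Δ, ORC2Δ, and ORC5Δ lines (ORC1KO, ORC2KO, and ORC5KO in the labels), in which the ORC1, ORC2, or ORC5 gene was disrupted with CRISPR–Cas9. Each line was assayed by SNS-seq in 2 biological replicates, 8 samples in all, and whether a line is a single clone is not stated in the sources used here. An origin was counted as a mucin origin if it overlapped a mucin gene body, or the 10000 bp on either side of it, by 1 bp or more (GENCODE release 44, hg38). The 7 joined windows span 469304 bp. They held 59 of 42162 origins in the table that sets WT against ORC1Δ, 58 of 44174 in the ORC2Δ table, and 58 of 46467 in the ORC5Δ table.

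Each table gives read counts for WT and one knockout line, with the replicates of a line already merged. The spread between replicates is therefore unknown, no test between lines was possible, and all intervals are 95% Clopper–Pearson intervals that cover counting error only. Reads that are copies of one molecule would make these intervals too narrow. Total reads in origins were 6416892 to 6878409 for WT and 6691088 to 8523971 for the knockout lines. A level is given in RPM, here scaled to all reads of that line in the origins of that table and not to the whole library. The same WT reads therefore give a somewhat different RPM in each table. A change is given as the log2 fold of RPM over WT. A change of 1.5-fold or more, which is 0.58 on the log2 scale, was called up or down. The same WT libraries stand in all 3 tables, so the 3 comparisons share their WT reads and are not independent.

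In SNS-seq, origins are found from short nascent strands, newly made DNA close to the place where synthesis started. The origin recognition complex (ORC) helps to load the MCM2–7 helicase at future origins. Mucins are the large, heavily sugar-coated proteins of mucus and of epithelial surfaces. MUC2, the main gel-forming mucin of the intestine, and MUC5AC, MUC5B, and MUC6 are secreted, whereas MUC1, MUC4, MUC12, MUC17, and MUC20 are membrane-bound. In most mucin genes a single large exon encodes tandem repeats rich in serine, threonine, and proline, which carry the O-linked sugars, and such an exon is a long stretch of repeated DNA.

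The sequences that the results turn on are of 2 kinds, and all are from the hg38 reference. The first is a simple repeat in a mucin intron or upstream of the gene, shown because it fills several of the origins with the largest changes. Each line below is a stretch of 120 bases of the forward strand from such an origin, with the commonest 8-base word of that origin in capitals.
MUC5AC intron 15, chr11:1169795-1169914: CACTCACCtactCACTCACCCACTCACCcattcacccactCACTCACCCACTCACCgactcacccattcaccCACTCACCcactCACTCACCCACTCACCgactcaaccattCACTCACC
MUC5AC intron 16, chr11:1172767-1172886: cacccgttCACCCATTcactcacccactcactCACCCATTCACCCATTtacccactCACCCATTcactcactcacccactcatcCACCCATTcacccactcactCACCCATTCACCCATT
MUC5AC upstream, chr11:1156101-1156220: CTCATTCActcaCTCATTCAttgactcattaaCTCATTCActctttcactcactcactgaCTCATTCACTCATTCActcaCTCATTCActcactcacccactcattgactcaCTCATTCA
MUC2 intron 40, chr11:1106172-1106291: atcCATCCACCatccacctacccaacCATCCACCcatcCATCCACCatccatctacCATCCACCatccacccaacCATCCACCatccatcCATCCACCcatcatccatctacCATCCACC
On the strand shown, all 4 stretches are mostly C, A, and T with few G. The word CACTCACC occurred 45 times on the forward strand of the MUC5AC intron 15 origin. Of all 42162 origins in the ORC1Δ table, 0.27% held 5 or more copies of it on either strand. CACCCATT occurred 15 times in the intron 16 origin (0.197% of all origins with 5 or more copies), and CTCATTCA 15 times in the upstream origin (0.0878%). CATCCACC occurred 23 times in the MUC2 intron 40 origin (1.57%). Each word was chosen from its own origin, so the shares count that exact word and not simple repeats in general.

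The second kind is the coding repeat itself. For 4 genes, 2 neighbouring repeat units from an origin are given on the coding strand, with the first unit in capitals. The unit length is the repeat period of the gene's whole repeat stretch. Over the origin that holds the pair, the period found was 24 bases in MUC2 and 48 bases in MUC5AC.
MUC2 exon 30, 69-base unit, chr11:1094627-1094764 (+): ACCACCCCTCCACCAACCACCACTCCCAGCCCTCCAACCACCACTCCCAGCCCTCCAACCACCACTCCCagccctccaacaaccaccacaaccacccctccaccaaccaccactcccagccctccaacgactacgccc
MUC5AC exon 31, 24-base unit, chr11:1189403-1189450 (+): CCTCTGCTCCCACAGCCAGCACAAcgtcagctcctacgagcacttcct
MUC1, 60-base unit, chr1:155190157-155190276 (-): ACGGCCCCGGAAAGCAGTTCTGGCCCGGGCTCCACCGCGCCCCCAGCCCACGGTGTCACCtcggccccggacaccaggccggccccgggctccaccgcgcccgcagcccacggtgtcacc
MUC4 exon 2, 48-base unit, chr3:195788577-195788672 (-): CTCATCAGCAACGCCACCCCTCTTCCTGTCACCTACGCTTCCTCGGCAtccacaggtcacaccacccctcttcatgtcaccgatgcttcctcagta
In these pairs, 75.36% of the bases of the 2 units were identical in MUC2, 54.17% in MUC5AC, 86.67% in MUC1, and 72.92% in MUC4. Each pair was picked because its identity lay nearest to the self-identity of the gene's whole repeat stretch. Self-identity is the share of bases equal to the base at the same place in the next unit. The pairs therefore restate the values of the stretches, which were 75.61%, 53.7%, 86.34%, and 73.93%. The coding strand had more C than G in the repeat stretch of every one of the 9 genes. Its GC skew, (G − C)/(G + C), ran from -0.618 in MUC2 and -0.552 in MUC6 to -0.304 in MUC17 and -0.252 in MUC20.

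By the rule used here, a repeat exon is at least 1000 bp of coding sequence in one exon. Such exons were found in 7 of the 9 genes, with lengths from 1893 bp in MUC20 to 14935 bp in MUC12. MUC2 and MUC1 have no such coding exon in the annotation. For them, exon 30 of a 49-exon MUC2 transcript without a defined coding sequence (5884 bp) and the 2980 bp of MUC1 made of 60-base repeats were used, both chosen after the values were seen. All 9 are called repeat stretches below. Joined over the tables and lists, there were 61 mucin origins, of which 46 touched a gene body, 15 lay in a flank, 18 overlapped a repeat exon, and 23 overlapped a repeat stretch.

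**Figure D1:**
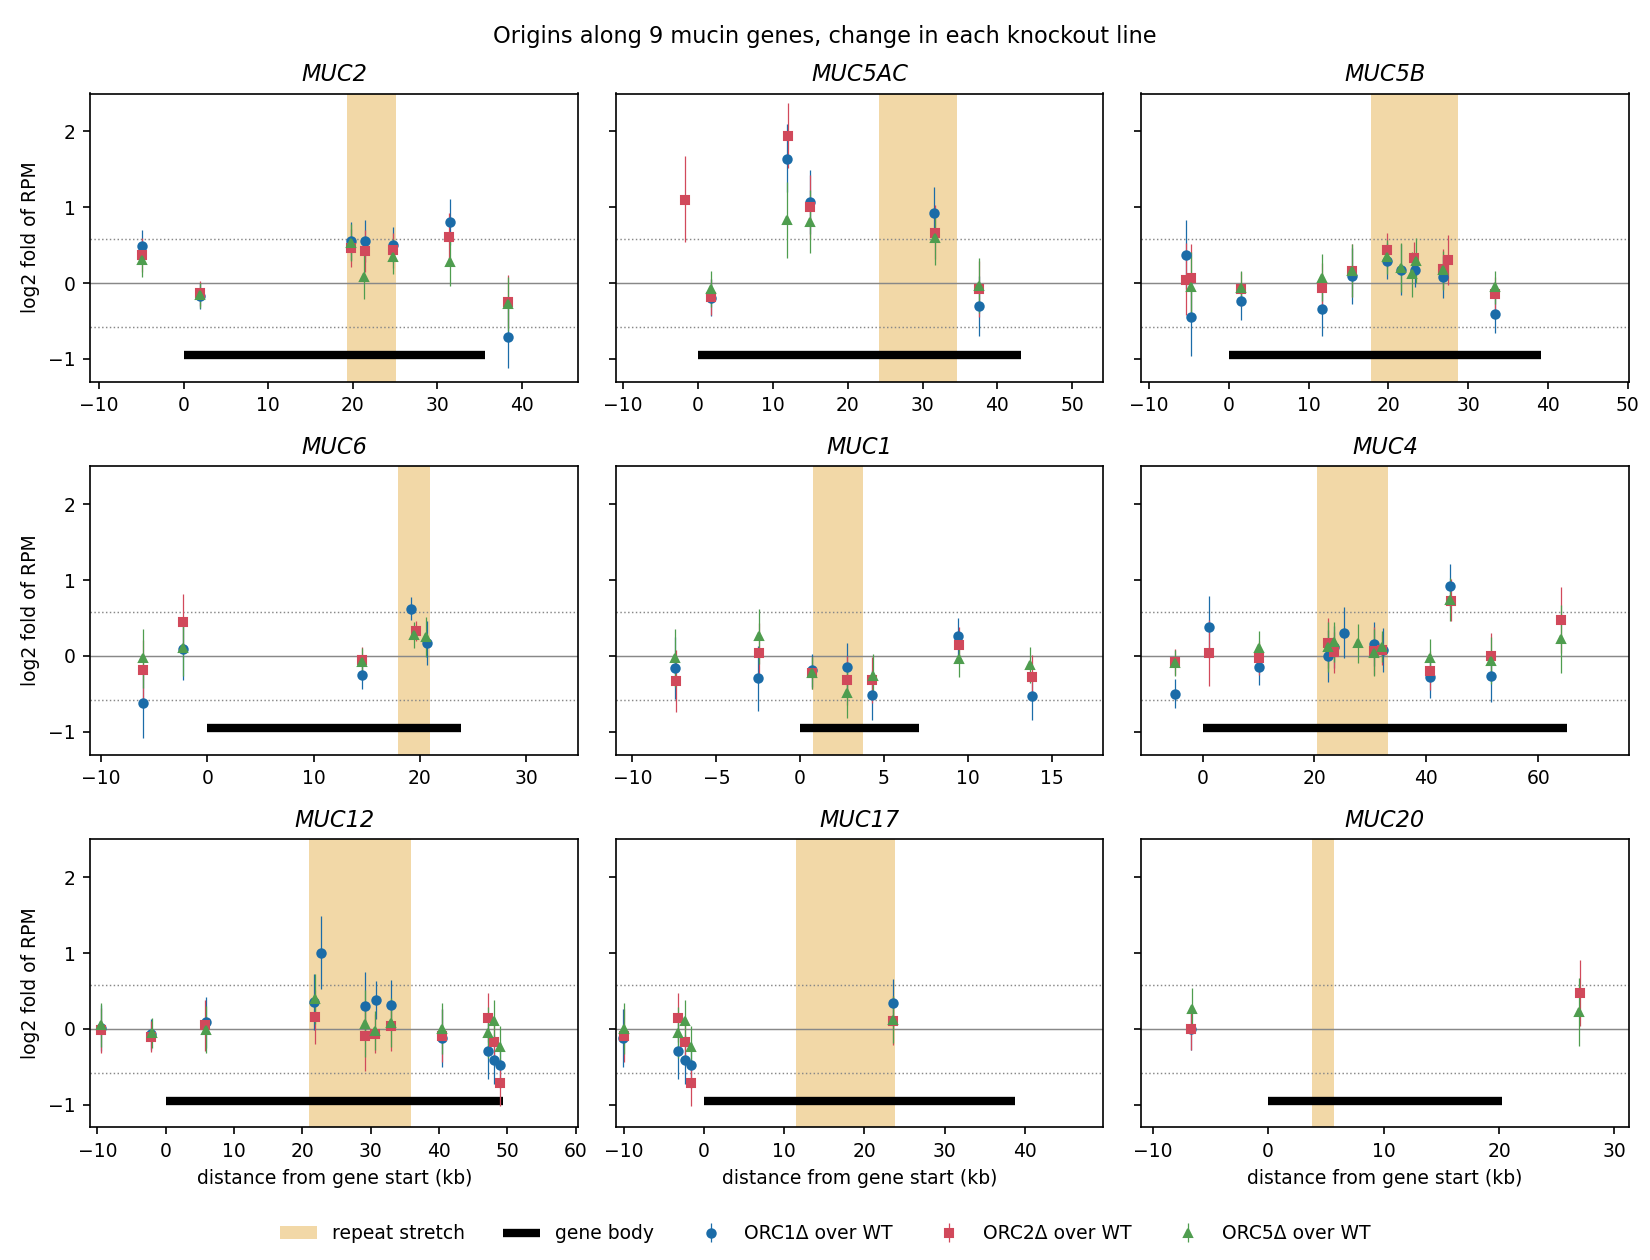
Log2 fold of RPM over WT (y axis) of every mucin origin in ORC1Δ (blue circles), ORC2Δ (red squares), and ORC5Δ cells (green triangles) against the distance of its midpoint from the gene start in kb (x axis), one panel per gene. Bars are 95% Clopper–Pearson intervals, shading is the repeat stretch, the black bar is the gene body, and dotted lines mark 1.5-fold. Origins in 2 windows appear in both panels. The 3 origins of MUC5AC and the one of MUC4 above the dotted line in all 3 lines stand apart, and the origins in the shaded stretches lie mostly above 0 except in MUC1.

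Most mucin origins were found in all 4 lines. The list of origins called in both replicates had 50 mucin origins of 30197 in WT, 54 of 33535 in ORC1Δ, 56 of 37813 in ORC2Δ, and 56 of 41332 in ORC5Δ cells. Of the 61 joined origins, 40 were on all 4 lists, 11 on 3, 6 on 2, and 4 on 1. That is 65.6% on all 4 lists, where 31.9% of 56863 origins joined in the same way over the genome were. Mucin origins also held more reads, with median WT reads of 178, 170, and 170 in the 3 tables, against 114, 112, and 110 for all origins. How far read number accounts for the sharing was not tested. No mucin origin was on the WT list alone (4.34% of all joined origins). There were 14 of 61 that were absent from the WT list, against 47.3% of all joined origins, and 6 of these (9.84%) were on all 3 knockout lists, against 7.29%. The 6 are the origins in intron 15, intron 16, and exon 31 of MUC5AC, one in intron 25 and one in exon 31 of MUC5B, and one in exon 2 of MUC12. A place absent from a list was not empty, since the tables give WT reads there too.

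Changes called at 1.5-fold were few. In ORC1Δ cells, 7 of 59 mucin origins were up and 2 were down, where 7.04% of all origins in that table were up and 3.95% down. In ORC2Δ cells, 6 of 58 were up and 1 was down, against 4.66% and 3.58% of all origins. In ORC5Δ cells, 4 of 58 were up and 0 were down, against 2.08% and 0.68%. An origin off the WT list entered a table only through the knockout line. Among the mucin origins on the WT list, 3 of 48 were up in ORC1Δ, 2 of 47 in ORC2Δ, and 1 of 48 in ORC5Δ cells, where 1.89%, 1.28%, and 0.546% of all such origins were. Their median log2 folds were -0.10, -0.0029, and 0.02, and those of all origins on the WT list, which had to be high enough in WT to be called there, -0.12, -0.10, and -0.06. With the origins of MUC5AC left out, 4 of 54 remained up in ORC1Δ, 2 of 52 in ORC2Δ, and 1 in ORC5Δ cells. In ORC1Δ and ORC2Δ cells this is close to the shares of all origins, 7.04% and 4.66%. The median log2 fold of mucin origins was 0.08 for ORC1Δ, 0.04 for ORC2Δ, and 0.08 for ORC5Δ, and that of all origins was -0.01, -0.04, and -0.0032. Of the 54 mucin origins present in all 3 tables, 4 were up in all 3 lines, where 1.62% of 34312 origins were.

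MUC5AC, a secreted gel-forming mucin of airway and stomach, held 3 of these 4 (ENSG00000215182.8, chr11:1157953-1201138, plus strand). Its origin in intron 15 lies 11976 bp from the gene start and changed most. WT had 56 reads (8.73 RPM) there and ORC1Δ 182 (27.2 RPM), a log2 fold of 1.64 (1.20 to 2.10). In the ORC2Δ table the reads were 58 in WT and 261 in ORC2Δ (8.73 and 33.4 RPM), a log2 fold of 1.94 (1.52 to 2.37). In the ORC5Δ table they were 51 and 112 (7.41 and 13.1 RPM), a log2 fold of 0.83 (0.34 to 1.33). WT was lower in each table. The rows cover 642, 755, and 385 bp in the 3 tables, so the knockout lines cannot be set against each other here.

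The next origin of MUC5AC, in intron 16, had 70 WT reads and 153 ORC1Δ reads (10.9 and 22.9 RPM), 69 and 162 in the ORC2Δ table (10.4 and 20.7 RPM), and 73 and 158 in the ORC5Δ table (10.6 and 18.5 RPM). Its log2 folds were 1.07 (0.65 to 1.497), 1.00 (0.58 to 1.43), and 0.80 (0.40 to 1.23). These intervals all overlap one another. The origin in exon 31, the repeat exon, had 116 WT and 230 ORC1Δ reads (18.1 and 34.4 RPM), 103 and 192 beside ORC2Δ (15.5 and 24.6 RPM), and 99 and 185 beside ORC5Δ (14.4 and 21.7 RPM). Its log2 folds were 0.93 (0.60 to 1.26), 0.66 (0.31 to 1.02), and 0.59 (0.23 to 0.96). The last lies just past the threshold and was 0.58 (0.5772, just under it) after a correction for GC content. All 3 origins were on the 3 knockout lists and not on the WT list.

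A further MUC5AC origin, upstream of the gene (chr11:1156072-1156431), was only on the ORC2Δ list and has a row only in that table, with 39 WT reads and 98 ORC2Δ reads (5.87 and 12.6 RPM, log2 fold 1.10, interval 0.55 to 1.67). The remaining 2 origins of the gene, in intron 1 and intron 36, were on all 4 lists. The intron 1 origin, with the most WT reads of the gene, had 287 WT and 262 ORC1Δ reads, 289 and 300 in the ORC2Δ table, and 289 and 339 in the ORC5Δ table. Its log2 folds were -0.19, -0.18, and -0.08. Within this one gene, log2 folds thus ran from -0.30 to 1.64 for ORC1Δ, -0.18 to 1.94 for ORC2Δ, and -0.08 to 0.83 for ORC5Δ.

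**Figure D2:**
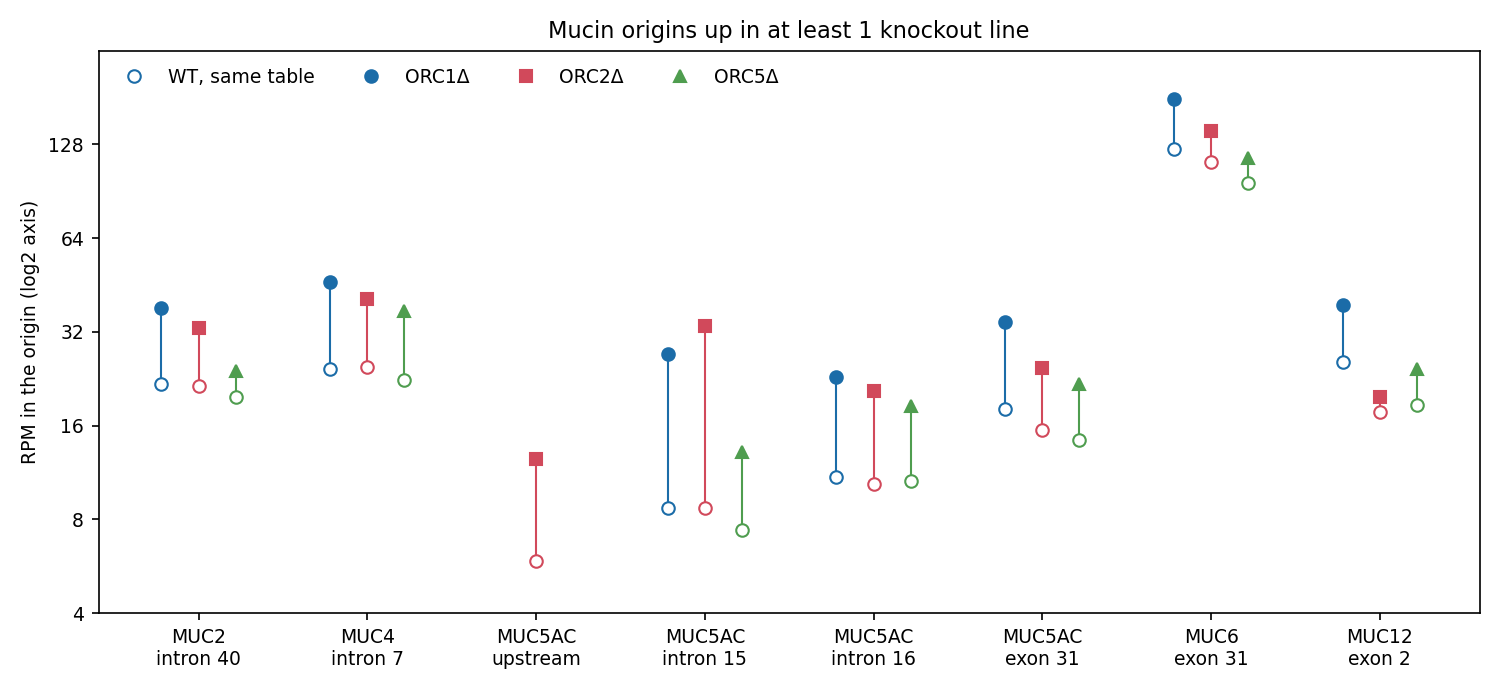
RPM (log2 axis) of the 8 mucin origins called up in at least 1 knockout line. Open circles are WT and filled symbols the knockout line of the same table, joined by a line, with several rows of a table at one place summed. The intron 15 origin of MUC5AC went from 8.73 RPM in WT to 33.4 RPM in ORC2Δ cells, the widest gap shown.

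MUC2 (ENSG00000198788.9, chr11:1074875-1110511, plus strand) had 7 joined origins, all on the 4 lists, and 5 of 7 were higher than WT in each knockout line. The origin in intron 40 had 140 WT and 255 ORC1Δ reads (21.8 and 38.1 RPM, log2 fold 0.80, interval 0.50 to 1.11). It had 143 and 257 reads in the ORC2Δ table (21.5 and 32.9 RPM, 0.61, interval 0.31 to 0.92), and 136 and 205 in the ORC5Δ table (19.8 and 24.0 RPM, 0.28, interval -0.04 to 0.61). It was called up in ORC1Δ and ORC2Δ cells. The interval in ORC5Δ cells overlaps both others.

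The 3 origins over MUC2 exon 30 were higher in all 3 lines and past 1.5-fold in none. Their log2 folds were 0.50 to 0.56 for ORC1Δ, 0.43 to 0.46 for ORC2Δ, and 0.08 to 0.53 for ORC5Δ. Summed, WT had 654 reads and ORC1Δ 988 (102 and 148 RPM), a log2 fold of 0.53 (0.39 to 0.68). The sums were 652 and 1039 in the ORC2Δ table, a log2 fold of 0.44 (0.30 to 0.58), and 651 and 1026 in the ORC5Δ table, a log2 fold of 0.35 (0.20 to 0.49). The origin with the most WT reads of MUC2, in intron 2, went the other way, with 585 WT and 544 ORC1Δ reads and log2 folds of -0.17, -0.13, and -0.16. An origin downstream of the gene had 135 WT and 86 ORC1Δ reads (21.0 and 12.9 RPM) and was down in ORC1Δ cells (-0.71, interval -1.12 to -0.31). Its log2 folds in ORC2Δ and ORC5Δ cells were -0.24 and -0.28.

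MUC5B, the other main airway gel-forming mucin (ENSG00000117983.17, chr11:1223066-1262172, plus strand), had 11 joined origins, 5 of them over exon 31. No MUC5B origin was called up or down in any line. The summed reads over exon 31 were 924 in WT and 1095 in ORC1Δ (144 and 164 RPM), a log2 fold of 0.18 (0.06 to 0.31). In the ORC2Δ table they were 916 and 1349 (138 and 173 RPM), a log2 fold of 0.32 (0.20 to 0.45). In the ORC5Δ table they were 948 and 1385 (138 and 162 RPM), a log2 fold of 0.24 (0.12 to 0.36). Every origin over the exon was higher than WT, with single log2 folds 0.08 to 0.28 for ORC1Δ, 0.18 to 0.43 for ORC2Δ, and 0.11 to 0.34 for ORC5Δ. The joined origin from 1245894 to 1246757, which had the most WT reads of the gene (314, 316, and 326 in the 3 tables), was absent from the WT list. In the ORC5Δ table the reads are the sum of 2 rows, with 164 and 162 WT reads.

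MUC6, a secreted mucin of the stomach (ENSG00000184956.16, chr11:1012823-1036718, minus strand), had 4 joined origins. The largest covered most of its repeat exon, exon 31 (chr11:1015762-1018770), whose repeats are 507 bases long. The tables divide this place differently, with 2 rows in ORC1Δ and ORC5Δ and 1 row in ORC2Δ. Together these rows held 797 WT and 1202 ORC1Δ reads (124 and 180 RPM), a log2 fold of 0.53 (0.40 to 0.66). In the ORC2Δ table they held 748 and 1104 (113 and 141 RPM), 0.33 (0.19 to 0.46), and in ORC5Δ cells' table, 663 and 987 (96.4 and 116 RPM), 0.26 (0.12 to 0.41). The sums cover 2692, 2584, and 2088 bp, so levels in RPM are not comparable between tables here. One of the ORC1Δ rows, from 1016503 to 1018693, was called up with 612 WT and 984 ORC1Δ reads (log2 fold 0.62, interval 0.48 to 0.77), and the other had a log2 fold of 0.18. An origin upstream of MUC6 was down in ORC1Δ cells, with 102 WT and 69 ORC1Δ reads (15.9 and 10.3 RPM, -0.62, interval -1.09 to -0.17), and had -0.19 and -0.03 in ORC2Δ and ORC5Δ cells.

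MUC1, a membrane-bound mucin widely expressed in epithelia (ENSG00000185499.17, chr1:155185824-155192916, minus strand) has 60-base repeats. In its repeat stretch, which was limited to the repeats, 86.34% of bases equalled the base 60 positions on, and the GC content was 79.26%. Both origins that overlapped the stretch were lower than WT in all 3 lines. Together they had 530 WT and 489 ORC1Δ reads (82.6 and 73.1 RPM), a log2 fold of -0.18 (-0.36 to 0.0035). The values were 537 and 530 in the ORC2Δ table, -0.25 (-0.43 to -0.08), and 533 and 535 in the ORC5Δ table, -0.30 (-0.48 to -0.13). The larger of them, over exon 2, had the most WT reads of the gene (363, 370, and 366) and log2 folds of -0.19, -0.22, and -0.23. It ran from 155191817 to 155192579, whereas the stretch ends at 155192123, so most of it lay outside the repeats. Its self-identity was 46.23%, and it held most of the summed WT reads. A further origin with a 60-base period (self-identity 68.0%) lay outside the stretch and is not in the sums. None of the 7 origins in the MUC1 window was called, and 1, 2, and 1 of the 7 were higher than WT in ORC1Δ, ORC2Δ, and ORC5Δ cells.

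MUC4, a large membrane-bound mucin (ENSG00000145113.22, chr3:195746765-195811973, minus strand), had the most joined origins, 13. The one in intron 7 was on all 4 lists and up in all 3 knockout lines. It had 156 WT and 309 ORC1Δ reads (24.3 and 46.2 RPM), a log2 fold of 0.93 (0.64 to 1.21). In the ORC2Δ table it had 164 and 320 (24.7 and 41.0 RPM), a log2 fold of 0.73 (0.45 to 1.01), and for ORC5Δ, 154 and 319 (22.4 and 37.4 RPM), a log2 fold of 0.74 (0.46 to 1.03). The 3 intervals overlap.

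The 6 joined origins over MUC4 exon 2, the repeat exon (chr3:195778790-195791497, 12708 bp, 48-base repeats), changed less. They summed to 864 WT and 987 ORC1Δ reads (135 and 148 RPM), a log2 fold of 0.13 (-0.0016 to 0.27). The sums were 870 and 1086 in the ORC2Δ table, 0.09 (-0.04 to 0.22), and 1083 and 1470 in the ORC5Δ table, 0.13 (0.02 to 0.25). Single origins ran from 0.0010 to 0.31 for ORC1Δ, 0.05 to 0.17 for ORC2Δ, and 0.04 to 0.18 for ORC5Δ, so none was below WT and none reached 1.5-fold. Of the 6, 3 were on all 4 lists, one was on the ORC1Δ list alone, and one on the ORC5Δ list alone. The origin with the most WT reads, upstream of MUC4, had 522 WT and 386 ORC1Δ reads (81.3 and 57.7 RPM, -0.50, interval -0.69 to -0.30). Its log2 folds in ORC2Δ and ORC5Δ cells were -0.08 and -0.09, with intervals that do not overlap that of ORC1Δ cells.

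MUC12, a membrane-bound mucin of the colon (ENSG00000205277.10, chr7:100969565-101018939, plus strand), had 11 joined origins, 4 of them over its repeat exon, exon 2 (chr7:100990585-101005519, 84-base repeats). The reads over this exon were 617 in WT and 861 in ORC1Δ (96.2 and 129 RPM), a log2 fold of 0.42 (0.27 to 0.57). They were 568 and 671 in the ORC2Δ table (85.5 and 85.9 RPM), 0.01 (-0.16 to 0.17), and 582 and 781 in the ORC5Δ table (84.6 and 91.6 RPM), 0.11 (-0.04 to 0.27). The sums cover 2834, 2324, and 2493 bp, so they are not comparable between tables. Each sum holds a row absent from the WT list, and that of ORC1Δ also holds the called row given next, likewise absent from it. Only one row was called, from 100991949 to 100992543 in ORC1Δ cells, with 55 WT and 115 ORC1Δ reads (8.57 and 17.2 RPM, 1.00, interval 0.53 to 1.49). This place lies in no separate row of the other tables. Other single log2 folds over the exon were 0.30 to 0.38 for ORC1Δ, -0.09 to 0.16 for ORC2Δ, and -0.02 to 0.39 for ORC5Δ.

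The origin at the last exon of MUC12, exon 12, was down in ORC2Δ cells, with 213 WT and 153 ORC2Δ reads (32.1 and 19.6 RPM, -0.71, interval -1.02 to -0.40). Its log2 folds were -0.47 and -0.24 in ORC1Δ and ORC5Δ cells, and the 3 intervals overlap. The origin with the most WT reads in the MUC12 window lies upstream of the gene and overlaps the neighbouring mucin gene MUC3A. It had 389 WT reads and 386 ORC1Δ reads and log2 folds of -0.07, -0.10, and -0.06.

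MUC17, a membrane-bound mucin of the intestinal brush border (ENSG00000169876.14, chr7:101020072-101058859, plus strand), has a repeat exon of 12219 bp with 177-base repeats, and a single origin was found there. It lay at the exon's 3' end and ran into intron 3. Its self-identity was 36.99%, against a median of 33.75% for all origins in the ORC1Δ table, and the 177-base period was not found in it. The origin had 153 WT and 203 ORC1Δ reads (23.8 and 30.3 RPM), a log2 fold of 0.35 (0.04 to 0.66). In ORC2Δ and ORC5Δ cells the log2 folds were 0.11 (-0.21 to 0.43) and 0.12 (-0.19 to 0.44), and the origin was on the WT and ORC1Δ lists only. The other 4 origins in its window are shared with MUC12, including the exon 12 origin of MUC12, which had the most WT reads there. MUC20 (ENSG00000176945.18, chr3:195720884-195741123, plus strand) had no origin in its gene body, its 1893-bp repeat exon included. The 2 origins in its flanks, one of them in the last intron of MUC4, were not called, with log2 folds from -0.0029 to 0.47. The upstream one had 196 WT reads in each table.

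**Figure D3:**
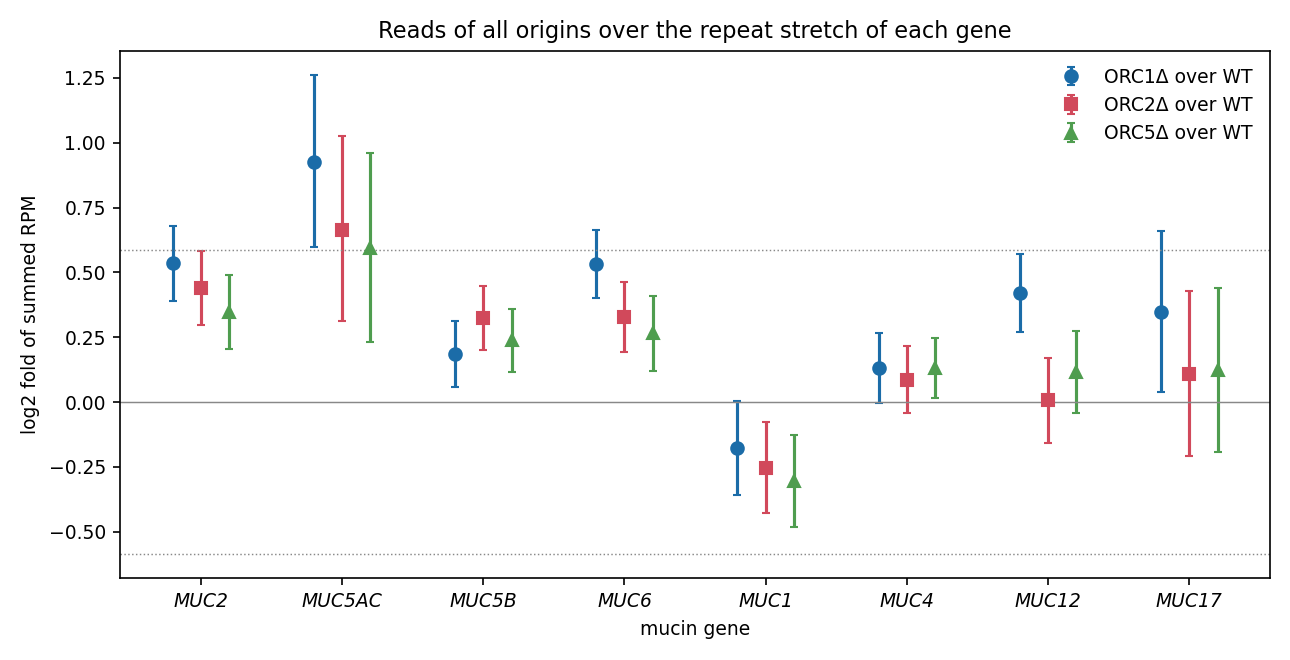
Log2 fold over WT (y axis) of the RPM summed over all origins that overlap the repeat stretch of each gene (x axis), for ORC1Δ (blue circles), ORC2Δ (red squares), and ORC5Δ cells (green triangles), with 95% Clopper–Pearson intervals. MUC20 has no origin there. MUC1 is the one gene below 0, at -0.18 to -0.30, and MUC5AC the one at or above 1.5-fold (dotted line), at 0.59 to 0.93.

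Over the repeat exons of the rule (MUC1 and MUC2 not included), most rows were higher than WT. All 18 rows in ORC1Δ, 13 of 15 in ORC2Δ, and 17 of 18 in ORC5Δ cells had a higher RPM than WT, while 20421 of 42162, 19442 of 44174, and 22944 of 46467 origins in all did. Only 3, 1, and 1 of these rows were called up and 0 were called down. The median log2 fold was 0.29 (0.16 to 0.35), 0.16 (0.05 to 0.33), and 0.17 (0.11 to 0.27), with intervals that cover the choice of origins. Of these rows, 12, 11, and 12 were on the WT list, and the others are in the tables only through the knockout line. On the WT list, 12 of 12, 10 of 11, and 11 of 12 were higher than WT, with medians of 0.23, 0.11, and 0.15 and 1, 0, and 0 up, where 10140 of 30120, 10093 of 30048, and 11305 of 30064 origins in all were higher. The mucin origins outside repeat exons had medians of -0.16, -0.02, and -0.03. Rows over one exon share their sequence and position, so they are not independent of each other. Overlap with a repeat exon does not by itself mean repeated sequence. Self-identity was low in the MUC17 origin (36.99%), in a MUC4 exon 2 origin (36.54%), and in the ORC1Δ row of MUC6 from 1015830 (36.81%).

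Origins over long coding exons of other genes had medians below 0. Those over any other coding exon of at least 1000 bp had medians of -0.22 in ORC1Δ (227 origins), -0.09 in ORC2Δ (262), and -0.02 in ORC5Δ cells (266), with 5, 4, and 1 up and 21, 15, and 1 down. Their median self-identity, the share of bases equal to the base one repeat unit on, was 36.55% in the ORC1Δ table, against 62.08% over the mucin repeat exons. Their median absolute GC skew (the skew without its sign) was 0.301, 0.288, and 0.281 in the 3 tables. Over the mucin repeat exons it was 0.473, 0.476, and 0.478, and among all origins 0.356, 0.337, and 0.338. All origins with a skew of 0.4 to 0.5 had median log2 folds of 0.115, -0.029, and 0.026. The repeat exons had 0.29, 0.16, and 0.17. How far skew accounts for the repeat-exon values was not tested. Neighbouring origins within 2.5 Mb of the mucin genes had medians of -0.15 to 0.0010 for ORC1Δ, -0.05 to -0.02 for ORC2Δ, and -0.01 to 0.01 for ORC5Δ. The windows of 8 other mucin genes held 24, 21, and 18 origins, of which 7, 3, and 1 were up and 1, 2, and 0 down. The shares up were 29.2%, 14.3%, and 5.56%, against the 7.04%, 4.66%, and 2.08% of all origins. MUC16 had 4, 1, and 1 of these and MUC3A 2, 2, and 0, with no row in the windows of MUC13, MUC15, and MUC19.

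The mucin origins were richer in G and C and in internal repeats than all origins. Their median GC content was 58.82% in the ORC1Δ table, against 52.49% for all origins, and their median self-identity 49.43% against 33.75%. A self-identity of at least 75% was found for 13.6%, 13.8%, and 15.5% of mucin origins in the 3 tables and for 1.32%, 1.31%, and 1.12% of all origins. High self-identity did not go with a higher level in every gene. Over the MUC1 repeats it was 93.35% in one origin, with log2 folds of -0.15, -0.32, and -0.49.

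The called origins were mostly those with an imbalance of G and C. With an absolute GC skew of at least 0.6, 5 of 9 mucin origins were up in ORC1Δ, 6 of 9 in ORC2Δ, and 4 of 8 in ORC5Δ cells. All of them were higher than WT, with median log2 folds of 0.80, 0.66, and 0.56. Of those up, 3, 4, and 3 were MUC5AC origins absent from the WT list. On the WT list there were 5 origins with this skew in each table, all higher than WT, and 2, 2, and 1 of them were up. The share up among all WT-list origins with this skew was not computed. The origins with this skew were the 3 MUC5AC origins up in all lines, the MUC5AC upstream origin in ORC2Δ, the MUC4 intron 7 origin, 4 origins of MUC2, and one over MUC4 exon 2 in ORC1Δ cells. Below 0.6, the counts up were 2 of 50, 0 of 49, and 0 of 50. The genome as a whole had the same order. Of all origins with a skew of at least 0.6, 48.9%, 39.9%, and 24.0% were up, and of the others 3.97%, 2.16%, and 0.762%. These shares include origins absent from the WT list. Across mucin origins, Pearson's r between absolute GC skew and log2 fold was 0.71 (n = 59), 0.74 (n = 58), and 0.72 (n = 58), and Spearman's rho 0.58, 0.65, and 0.64. On the WT list alone, r was 0.70 (n = 48), 0.66 (n = 47), and 0.66 (n = 48), and rho 0.61, 0.64, and 0.61. The points share their libraries, the 3 panels share WT, and several points come from one exon. GC content had an r of -0.48, -0.46, and -0.44.

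**Figure D4:**
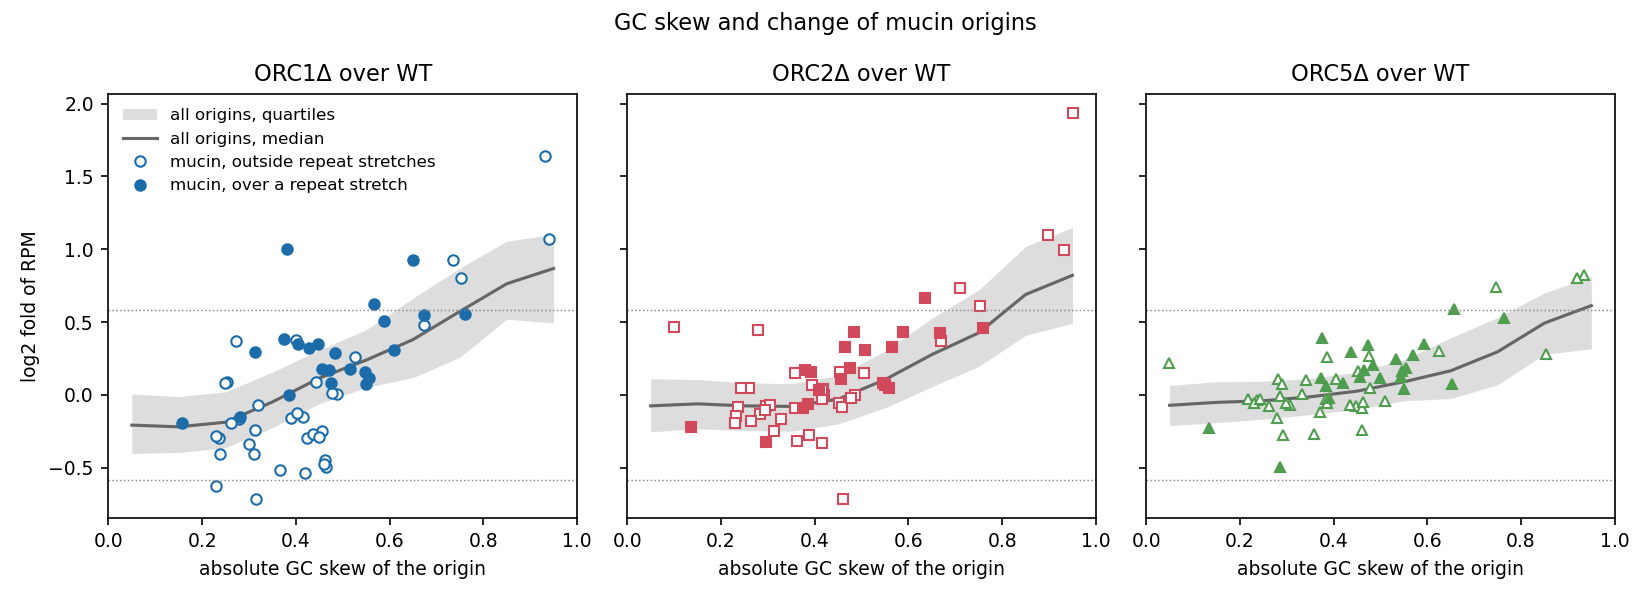
Log2 fold of RPM over WT (y axis) of each mucin origin against its absolute GC skew (x axis, no unit), filled over a repeat stretch and open elsewhere, one panel per knockout line. The grey line and band are the median and quartiles of all origins in steps of 0.1. The MUC5AC intron 15 origin is the highest point in each panel, at 1.64, 1.94, and 0.83.

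Short reads cannot be placed uniquely in every part of these genes. Of the 50-base words in the repeat stretch, the share that occurs more than once in hg38 was 70.4% in MUC20, 68.9% in MUC12, 56.1% in MUC1, 48.1% in MUC5B, 46.2% in MUC2, 38.1% in MUC4, 36.1% in MUC5AC, 10.0% in MUC17, and 4.73% in MUC6. It was 56.7% in the MUC5AC intron 15 origin. In the MUC5AC intron 16 and MUC4 intron 7 origins it was 0.0%. The part that read placement has in these values was not tested.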

How the data were processed

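SNS-seq of 4 lines with 2 replicates each was used. The submitters' processing notes name GRCh38, Trim Galore 0.6.4, Bowtie, MACS2, and bedtools. The authors called peaks with MACS2 per replicate and kept those found in both. The 4 deposited peak lists hold positions only. The 3 deposited tables hold counts, unnormalized whole numbers per origin, for WT and one knockout line, with replicates merged by the authors. The counting tool, read length, duplicates, and reads with several matches are not given in the sources used here.

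Origins on chromosomes 1 to 22, X, and Y were kept, while total reads include other contigs. Counts were scaled to total reads per line and table, without a pseudocount or a filter. Repeat periods of 2 to 600 bases were searched in origins and of 6 to 600 in repeat stretches. The median intervals are binomial order-statistic intervals. The named origins are those over repeat exons, those called in at least 1 line, and the one with the most WT reads per window. The sequence of one mucin origin is not reported here. The genes and lists were chosen with earlier results of these data known. Software was R 4.3.3 (edgeR 4.0.16, for TMM factors only) and Python 3.11.15 with scipy 1.17.1, numba 0.67.0, pandas 2.3.3, pysam 0.24.0, and samtools 1.23.1.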

Additional observations from a re-analysis of the deposited data

How the results depend on the processing

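No paired analysis was possible because the tables merge the replicates of a line, and for the same reason leaving out a replicate could not be run. Values are in the order ORC1Δ, ORC2Δ, and ORC5Δ cells. Median-of-ratios and TMM scaling moved no count of calls by more than 1.5 times, and all 17 calls of single origins up remained under both. After the correction for GC content, 16 of the 17 remained; that in MUC5AC exon 31 in ORC5Δ cells did not, which left 0 repeat-exon origins up there.

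Without scaling, mucin origins up were 13 in ORC2Δ and 11 in ORC5Δ cells, mucin origins down 1 and 0 in ORC1Δ and ORC2Δ, and repeat-exon origins up 2 and 4 in ORC2Δ and ORC5Δ. The mucin medians were then 0.28 and 0.39 in ORC2Δ and ORC5Δ, and the repeat-exon medians 0.35, 0.39, and 0.48. Leaving out the scaling shifts every origin of a table, mucin or not, upward by the same amount. The knockout lines had more reads than WT, 7808290 against 6640888 for ORC2Δ and 8523971 against 6878409 for ORC5Δ. These unscaled counts and medians therefore include the difference in depth and are not a mucin increase. The GC correction gave 0 mucin origins down and a median of 0.21 in ORC1Δ, with a repeat-exon median of 0.38. Relative to neighbours within 2.5 Mb, ORC1Δ had 11 mucin origins up, 0 down, and a repeat-exon median of 0.38.

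At 5/4 of WT, 16 of 59, 15 of 58, and 8 of 58 mucin origins were up and 10, 3, and 1 down. Repeat-exon origins up were 6 of 18, 4 of 15, and 3 of 18. At 2-fold, mucin origins up were 3, 2, and 0 and down 0 and 0 in ORC1Δ and ORC2Δ, and repeat-exon origins up 1, 0, and 0. Called by presence on the lists, mucin origins up were 11, 11, and 10 and down 5, 2, and 2. Repeat-exon origins up were then 6, 4, and 6, with 2 and 2 down in ORC2Δ and ORC5Δ. The share of all origins was not computed at these thresholds or by list presence. These counts show only how the mucin calls move with the setting. In windows of 25 kb, 11 of 77 were up in ORC1Δ and 10 of 77 in ORC2Δ, and 1 was down in ORC5Δ. In ORC1Δ, gene bodies alone gave 0 down, windows of 5 kb gave 1, and a filter of 200 reads gave 1. Leaving out MUC5AC, chosen after seeing the data, gave 4 of 54, 2 of 52, and 1 up. Of all origins, 7.04%, 4.66%, and 2.08% were up. Origins on the WT list, also chosen after seeing the data, gave 3, 2, and 1 mucin origins up and 1, 0, and 0 repeat-exon origins up, with mucin medians of -0.10 and -0.0029 in ORC1Δ and ORC2Δ, below 0.

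No called origin changed sign. Folds of single origins rest on 39 to 748 WT reads.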
